A study of Homo sapiens with 24 samples.

Results

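The first hour of treatment with SK-3-91 was described in MOLT4 cells, a line from human T-cell acute lymphoblastic leukaemia, over all 9822 genes of the deposited count table. The comparison used 8 of the 24 RNA-seq libraries, 4 from cells given SK-3-91 for 1 h and 4 from cells given its solvent DMSO for 1 h, chosen by their sample titles. The other 16 libraries, SK-3-91 and DMSO at 4 h and at 8 h with 4 replicates each, entered the estimate of the spread and were used where the 1 h response was followed in time. All cells were grown in RPMI1640 with 10% FBS and carried no genetic change that the labels name. The labels call SK-3-91 a pan-kinase degrader. The sources used here give no dose for it. Whether the replicates are separate cultures is not stated, and p-values therefore reflect the spread of these libraries, which may be technical. One cell line stands for the disease here.

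A degrader joins a part that binds its target proteins to a part that recruits a ubiquitin ligase, so that the targets are marked and destroyed by the proteasome. Protein kinases relay signals to transcription factors and, as cyclin-dependent kinases, act on RNA polymerase II itself. An mRNA level can move within an hour only as far as the mRNA is made or broken down in that time: many transcription factor and signalling mRNAs are known to be short-lived in human cells, and most mRNAs of ribosomal proteins and metabolic enzymes are known to be long-lived.

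Counted reads came to 13.6 ± 0.0324 M (1e6 reads) per library with SK-3-91 and 14.1 ± 0.126 M with DMSO (SD, n = 4 each). The SK-3-91 total was 96.2% of the DMSO total (exact two-sided permutation test, p = 0.0286, the smallest that 4 against 4 allows). The first principal component of the 8 libraries held 81.2% of the variance and had the 4 SK-3-91 libraries on one side and the 4 DMSO libraries on the other. Of 24 T-lineage markers 22 were in the table, 10 higher and 4 lower with SK-3-91, where 24.9% of all genes were higher and 29.4% lower. The summed level of these markers was 6970 to 7204 CPM (counts scaled to a common library total) with SK-3-91 and 6358 to 6458 CPM with DMSO. Of the myeloid, the erythroid and the epithelial markers 0 were in the table, of the B-cell markers only CD79A and of the fibroblast and endothelial markers only PECAM1. Values below are CPM scaled by TMM factors, and a fold change is SK-3-91 over DMSO on the log2 scale. In bulk RNA, fewer cells of a kind and less RNA per cell cannot be told apart, and CPM values carry no measure of total RNA per cell.

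At 1 h, 2448 genes were higher (24.9% of those tested) and 2889 were lower (29.4%) with SK-3-91, together 54.3% (edgeR quasi-likelihood test, adjusted p under 0.05). The split turned on the scaling: 3249 higher and 2573 lower with RLE factors, 1988 and 3079 with library size alone, and 2503 and 2857 with upper-quartile factors. Most calls were small. Of the genes called higher 98.6% were under 0.5 in log2 fold change, with a median of 0.19, and of those called lower 60.7% were under 0.5 in size, with a median of -0.40. Larger changes went almost all one way. A test against a minimum fold of 1.5 gave 573 lower genes (5.83%) and 5 higher ones (0.0509%), and 319 called genes were at least 2-fold lower (3.25%) against 5 at least 2-fold higher (0.0509%). In 28.2% of genes all 4 SK-3-91 libraries lay below all 4 DMSO libraries, and in 22.8% they all lay above. The 5 genes past the minimum fold upward were MIR210HG, LINC02603, SLC26A5, NNAT and PRSS12. Each had a mean of at most 5.42 CPM with SK-3-91, and LINC02603 shares sequence or exons with other genes.

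Among the 10 largest decreases at a mean of at least 5 CPM in the higher group, ID3, CISH and DUSP1 are inducible regulators, ZNF627, ZNF823, ZNF2 and ZNF526 encode zinc-finger proteins, PARS2 charges the mitochondrial tRNA for proline and ZC3H10 encodes an RNA-binding zinc-finger protein. CISH, which restrains cytokine receptor signalling, had 1.87, 1.57, 1.98 and 1.17 CPM in the SK-3-91 libraries, against 9.08, 10.3, 9.05 and 9.88 CPM in the DMSO libraries (log2 fold change -2.54 ± 0.14 SE, adjusted p = 9.7e-19). DUSP1, a phosphatase of MAP kinases, had 1.73, 1.23, 1.64 and 1.31 CPM with SK-3-91 and 6.31, 6.11, 6.25 and 6.37 CPM with DMSO (-2.08 ± 0.16, adjusted p = 3.3e-14). In both genes the 4 SK-3-91 libraries lay far below the 4 DMSO libraries and no values overlapped. The rule for naming called genes, here and below, asks that the 2 groups do not overlap. A lack of overlap in such a gene therefore follows from the choice and adds no support. Over all genes 28.2% lay wholly below and 22.8% wholly above.

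The promoters of CISH and DUSP1 are shown because both genes are known to be switched on by signalling through named elements. Each window runs from 250 bases before to 50 bases after the annotated start (RefSeq, GRCh38.p14), 5′ to 3′ on the strand of the gene. Capitals mark TTCNNNGAA, the pattern bound by STAT factors, in CISH (chr3:50611725-50612024, minus strand), and the cAMP response element TGACGTCA and the TATA box TATAAA in DUSP1 (chr5:172771146-172771445, minus strand).
CISH: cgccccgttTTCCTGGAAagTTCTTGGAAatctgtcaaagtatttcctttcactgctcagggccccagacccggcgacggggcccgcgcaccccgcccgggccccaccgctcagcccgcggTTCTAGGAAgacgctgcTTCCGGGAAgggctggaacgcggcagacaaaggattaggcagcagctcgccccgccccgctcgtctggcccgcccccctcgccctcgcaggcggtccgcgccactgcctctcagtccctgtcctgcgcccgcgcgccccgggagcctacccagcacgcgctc
DUSP1: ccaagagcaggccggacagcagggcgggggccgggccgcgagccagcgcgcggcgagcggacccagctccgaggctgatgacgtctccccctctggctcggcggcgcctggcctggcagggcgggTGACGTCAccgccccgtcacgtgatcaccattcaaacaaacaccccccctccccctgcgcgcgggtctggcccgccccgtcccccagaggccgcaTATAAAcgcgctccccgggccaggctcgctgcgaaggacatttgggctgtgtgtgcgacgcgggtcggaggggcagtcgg
The CISH window holds TTCNNNGAA at 4 places, beginning 241, 230, 129 and 112 bases before the start, and 6 of the 27305 windows in the table hold 4 or more. On either strand at least 1 such match was found in 7.88% of all windows. The DUSP1 window holds TGACGTCA 125 bases and TATAAA 30 bases before the start, and these were found on either strand in 1.98% and 12% of all windows. A match of letters is a description and not a bound site.

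The 10 largest increases at that level were small beside the decreases, from 0.52 to 1.15. Genes at lower levels had larger ones, 3.04 for SLC26A5, 2.12 for PRSS12, 1.88 for LINC02603 and 1.42 for NNAT. ARRDC3, an arrestin-domain protein that acts in receptor sorting, had 52.6, 63, 60.4 and 56.9 CPM with SK-3-91 and 31, 38.4, 41.2 and 32.9 CPM with DMSO (0.70 ± 0.07, adjusted p = 7.7e-12). Its 4 SK-3-91 libraries all lay above the 4 DMSO libraries, with the nearest pair at 52.6 and 41.2 CPM. GFRA4 and GPM6A, both better known from neurons, had log2 fold changes of 0.67 ± 0.14 and 0.56 ± 0.12, and LINC00641 and CCDC18-AS1 are noncoding genes at 0.62 ± 0.10 and 0.61 ± 0.13. MZF1, at 0.65 ± 0.09, is a zinc-finger gene outside the symbol patterns used for that family.

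**Figure D1:**
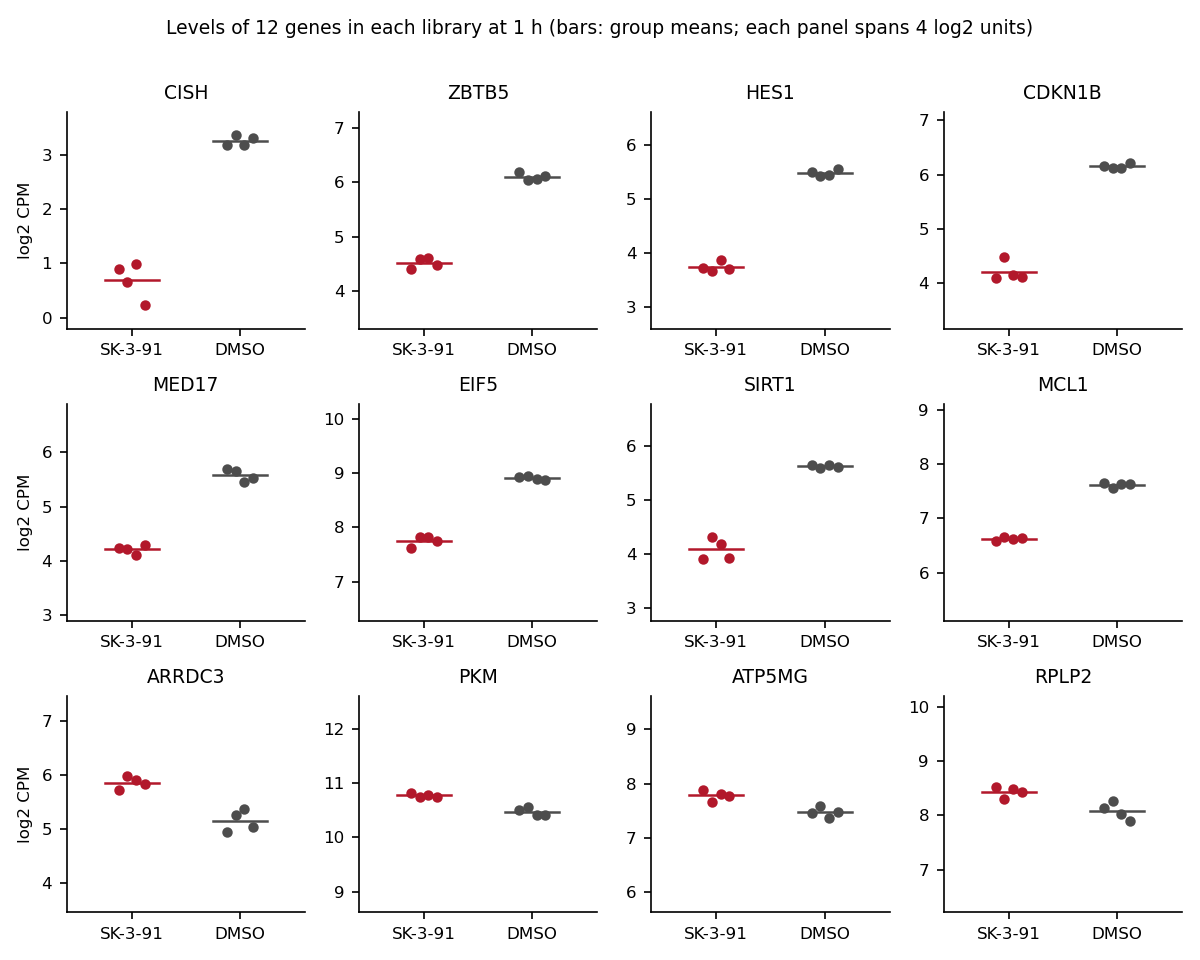
Log2 CPM of 12 genes in each library at 1 h, SK-3-91 libraries on the left of each pair and DMSO libraries on the right, with a bar at each group's mean. In the upper and middle rows the SK-3-91 points lie well below the DMSO points; for ARRDC3, PKM, ATP5MG and RPLP2 they lie a little above.

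The genes were next sorted into 110 classes by symbol pattern or list, ordered here by what they do. Each class is given as the number of measured members called higher and lower and, for some, its median log2 fold change, beside 24.9% higher, 29.4% lower and a median of 0.01 over all genes. More members were lower in 71 classes, more were higher in 38 and the sides were equal in 1. In 12 classes more members were lower while the median was above 0, by at most 0.05. In 32 classes the larger side changed or became equal under RLE, upper-quartile or no scaling factors, and each such class below is marked. The called genes given below with a log2 fold change alone had standard errors of 0.03 to 0.19, and adjusted p-values of at most 0.014. Genes in no class numbered 4069, of which 25.9% were higher and 25.4% lower.

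**Figure D2:**
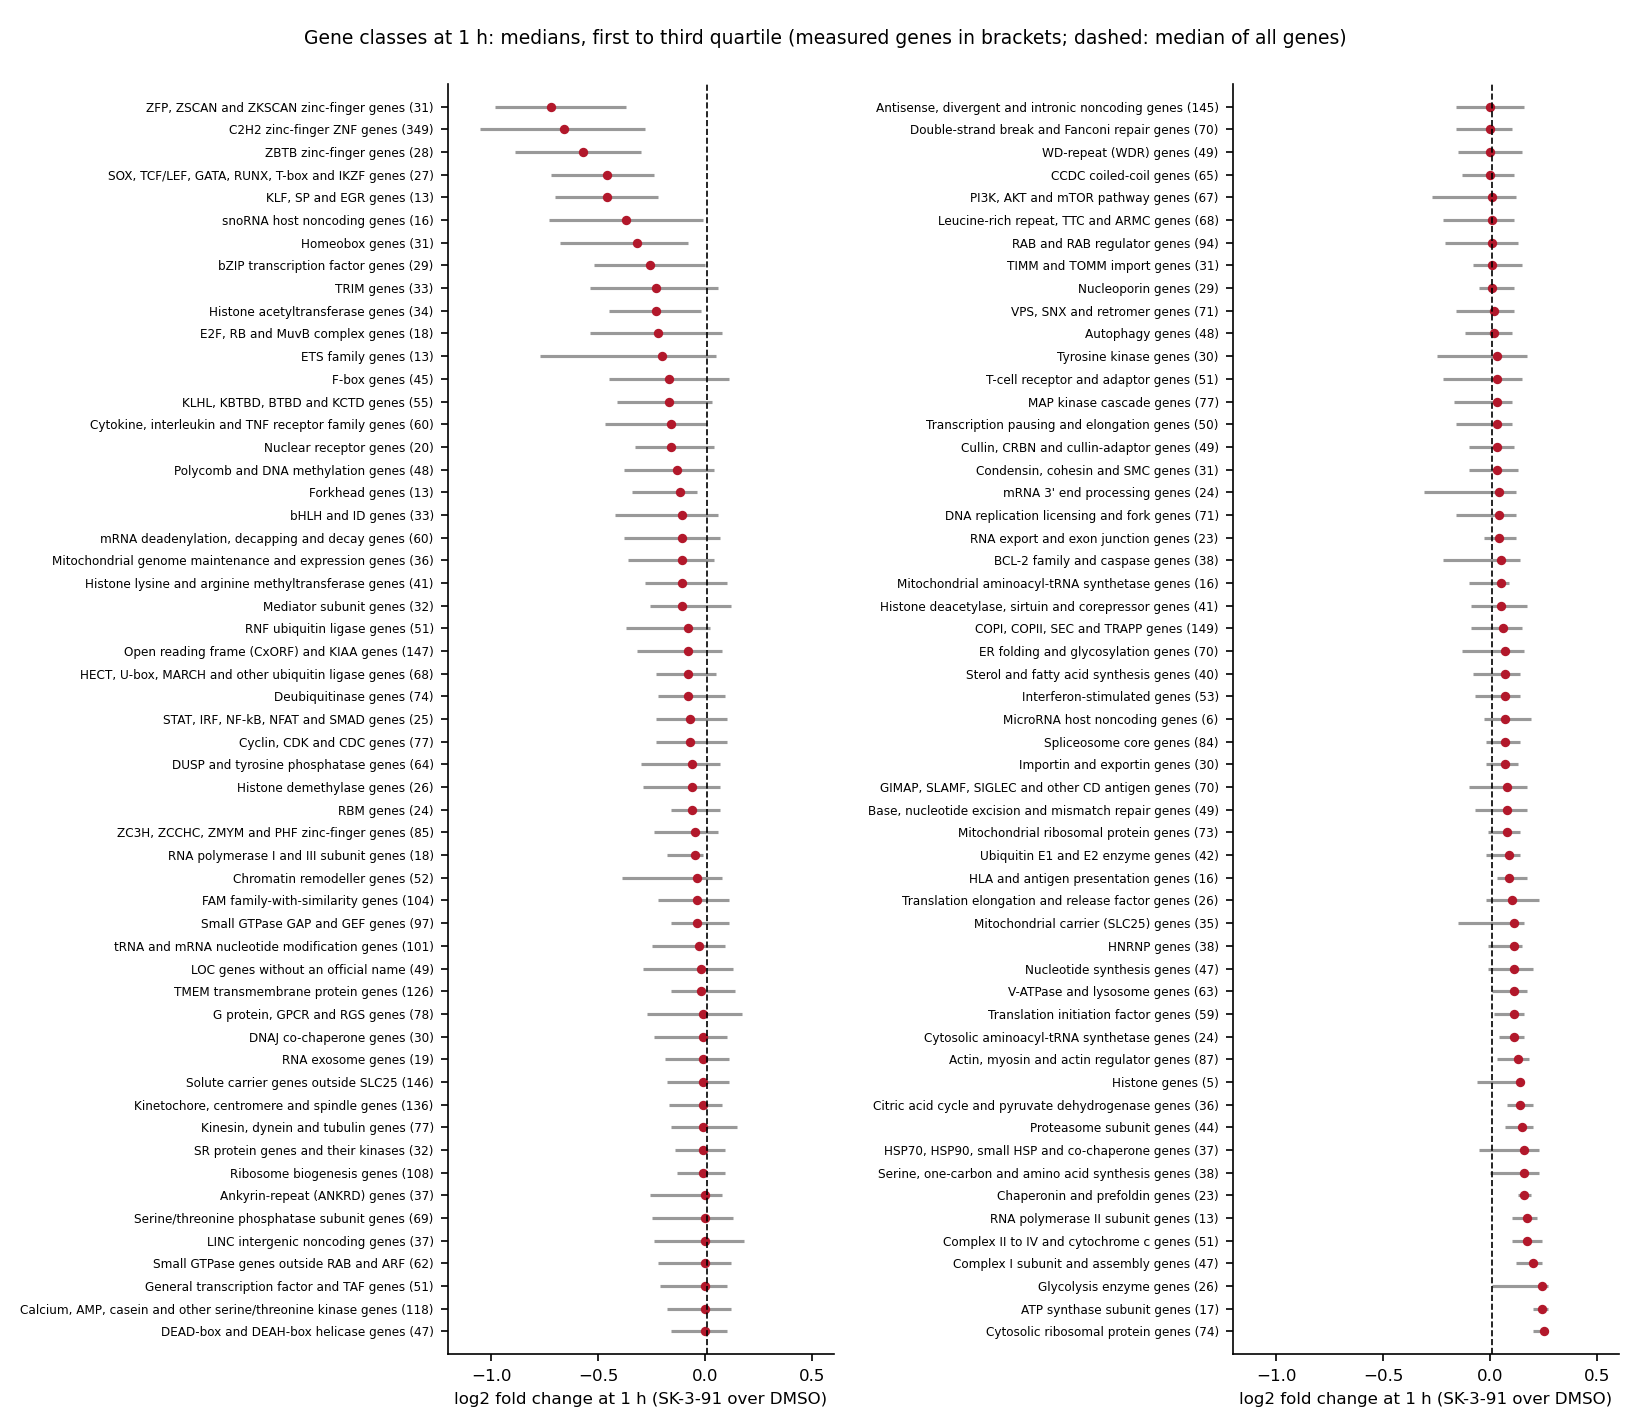
Median log2 fold change at 1 h (SK-3-91 over DMSO, x axis) of each of the 110 gene classes, with bars from the first to the third quartile of its measured members and the dashed line at the median of all genes. Zinc-finger classes and other transcription factor classes, with the snoRNA host genes at -0.37 among them, lie furthest left, with medians down to -0.72, and ribosomal protein, ATP synthase and glycolysis genes lie furthest right, with medians up to 0.25.

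Many transcription factor genes fell. Zinc-finger proteins of the C2H2 type, the largest group of human transcription factors and many of them repressors of transposable elements, made up 349 measured ZNF genes, of which 286 were lower (81.9%), 9 were higher and the median was -0.66. Among the ZFP, ZSCAN and ZKSCAN genes 27 of 31 were lower (median -0.72), and among the ZBTB genes 23 of 28 were lower and 0 higher (median -0.57). Together these 3 classes held 408 genes, of which 336 were lower (82.4%), 10 were higher and 164 were lower past the minimum fold (40.2%). Over the ZNF genes, the median log2 deviation from the mean of the DMSO libraries was -0.665, -0.602, -0.633 and -0.626 in the 4 SK-3-91 libraries, against -0.001, -0.026, 0.016 and 0.014 in the 4 DMSO libraries. The groups thus lay far apart beside the spread within each.

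Single zinc-finger genes spanned a wide range. ZBTB5 had 21.2, 24, 24.4 and 22.3 CPM with SK-3-91 and 73.6, 66.3, 67 and 69.4 CPM with DMSO (-1.59 ± 0.06, adjusted p = 2.2e-24). The SK-3-91 values lay close together and the lowest DMSO value, 66.3 CPM, was more than 2-fold above the highest of them. Log2 fold changes were -1.80 for ZKSCAN4, -1.54 for ZKSCAN2, -1.67 for ZBTB3, -1.60 for ZBTB49 and -1.05 for ZBTB6. The largest increases in the family were ZNF385A at 0.29 and ZNF692 at 0.27, and ZFP36L2, which the ZFP pattern also takes, encodes an RNA-binding decay factor (-1.31).

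The other factor families had more members lower than higher, some at shares not far from the 29.4% of all genes. KLF, SP and EGR genes had 11 of 13 lower and 0 higher (median -0.46), with KLF7 at -1.21, EGR1 at -1.10 and KLF3 at -0.70. In the class of SOX, TCF/LEF, GATA, RUNX, T-box and IKZF genes, which include the master regulators of T-cell development, 20 of 27 were lower and 2 higher (median -0.46). GFI1, a repressor needed in early T cells, was at -1.05, EOMES at -1.31 and RUNX2 at -0.94, while TCF7 was one of the 2 higher members at 0.25. The other was MYBL2 at 0.22, which like GFI1 lies outside the families that name the class. Homeobox genes had 19 of 31 lower and 1 higher (median -0.32). OTX1 had 4.84, 4.15, 4.71 and 5.5 CPM with SK-3-91 and 17.9, 18.1, 18 and 20.4 CPM with DMSO (-1.95 ± 0.11, adjusted p = 2e-18), so the groups were separated by more than 3-fold. IRX5 was at -1.40.

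Basic leucine zipper genes had 18 of 29 lower and 3 higher (median -0.26), with NFE2 at -0.99, BACH2 at -0.93 and FOSL2 at -0.77. ETS genes had 7 of 13 lower and 1 higher, among them ETV3 at -0.95 and ELF2 at -0.84. Of 33 basic helix-loop-helix and ID genes 12 were lower and 5 higher. HES1, a direct target of Notch signalling in T cells, had 13.2, 12.7, 14.7 and 13.1 CPM with SK-3-91 and 45, 42.9, 43.7 and 46.9 CPM with DMSO (-1.73 ± 0.06, adjusted p = 5.4e-25), with no overlap. MXD1 was at -1.46 and MYCN at -1.45. Nuclear receptor genes had 9 of 20 lower and 2 higher, led by the clock repressor NR1D1 at -1.29, and RORA was at -0.78. Of 18 genes of the E2F, RB and MuvB complexes, which time the cell cycle, 11 were lower and 5 higher: the repressors E2F7 and E2F8 were at -1.57 and -1.22 and the activator E2F2 at -1.14, while E2F4 was at 0.21 and TFDP1 at 0.16. The STAT, IRF, NF-kB, NFAT and SMAD class held 8 lower and 4 higher of 25, and forkhead genes 5 lower and 3 higher of 13, with FOXB1 at -1.39 and FOXM1 at 0.13. Of 85 genes with other zinc-finger domains (ZC3H, ZCCHC, ZMYM, PHF and ZDHHC symbols among them) 28 were lower and 11 higher, with PHF13 at -1.19 and ZC3H12A, which encodes an RNase, at -1.08.

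**Figure D3:**
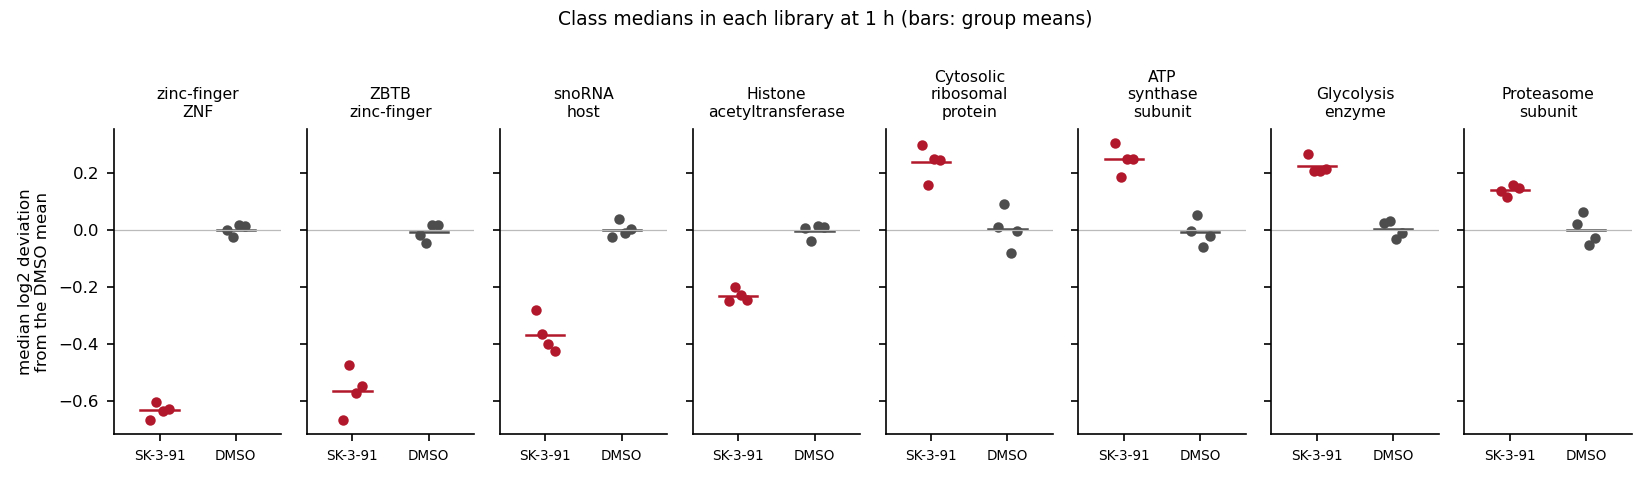
Median log2 deviation from the DMSO mean in each library at 1 h for 8 gene classes, SK-3-91 libraries on the left of each pair and DMSO libraries on the right. The 4 SK-3-91 points lie below all 4 DMSO points for the 4 classes on the left and above them for the 4 classes on the right.

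Genes of the transcription machinery divided by complex. RNA polymerase II subunit genes had 8 of 13 higher and 1 lower (median 0.17), with POLR2G at 0.22 and POLR2D at -0.29. Of these 13 genes 4 were uncertain, and without them 4 of 9 were higher and 1 lower (median 0.108). The subunits of RNA polymerases I and III had 2 of 18 higher and 7 lower (median -0.05), with POLR3F at -0.82 and POLR3GL at 0.31. Mediator, which links activators to the polymerase, had 16 lower and 6 higher of 32. MED17 had 18.9, 18.6, 17.2 and 19.7 CPM with SK-3-91 and 51.8, 50.6, 43.6 and 46.4 CPM with DMSO (-1.37 ± 0.06, adjusted p = 4.1e-21), and MED9 had 12.9, 13.4, 13.6 and 11.1 CPM with SK-3-91 and 30.2, 30.6, 29.4 and 29.1 CPM with DMSO (-1.22 ± 0.07, adjusted p = 1.2e-17). Both genes lay lower in every SK-3-91 library than in any DMSO library, whereas MED24 was at 0.28 and MED4 at 0.21. Of 50 pausing and elongation genes 16 were lower and 12 higher, and with RLE factors 18 were higher and 16 lower. MEPCE, which caps and stabilises the 7SK RNA that holds P-TEFb inactive, had 89.7, 96.3, 90.5 and 92.4 CPM with SK-3-91 and 223, 209, 209 and 231 CPM with DMSO (-1.24 ± 0.04, adjusted p = 1e-24). INTS5 of the Integrator complex was at -0.97, and the elongation factor genes ELL and TCEA2 were at -0.67 and 0.26. Of 51 general factor and TAF genes 15 were lower and 10 higher, with 16 higher and 13 lower under RLE factors. GTF2E1 was at -0.90 and TAF1D at -0.72.

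Chromatin classes had more members lower than higher, apart from the deacetylase class and the 5 histone genes. Of the histone genes 2 were higher and 1 lower (2 each with no scaling factors). Their median was 0.14, but -0.058 without the 2 uncertain ones. Histone acetyltransferase genes and their partners had 21 of 34 lower and 3 higher (median -0.23), with BRPF1 at -0.88, BRD1 at -0.77 and JADE1 at -0.72, 3 scaffolds of acetyltransferase complexes. Of 41 lysine and arginine methyltransferase genes 19 were lower and 8 higher: ASH1L and KMT2C were both at -0.77 and SETD1B at -0.76, against PRMT1 at 0.23 and CARM1 at 0.22. Polycomb and DNA methylation genes had 24 of 48 lower and 6 higher, with CBX8 at -1.25, SFMBT2 at -1.19 and TET2 at -0.86. Demethylases had 11 of 26 lower and 3 higher, with KDM4D at -1.38 and JMJD1C at -0.84. Remodellers had 18 of 52 lower and 10 higher. Deacetylase, sirtuin and corepressor genes had 15 of 41 higher and 9 lower. Within that class SIRT1 had 15, 20, 18.3 and 15.2 CPM with SK-3-91 and 49.9, 48, 49.7 and 49 CPM with DMSO (-1.52 ± 0.07, adjusted p = 2.2e-21), with no overlap, while SIRT2 was at 0.23, SIRT6 at 0.26 and HDAC8 at 0.32.

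RNA processing classes differed. HNRNP and related genes had 19 of 38 higher and 7 lower (median 0.11), with RALY at 0.22, against MBNL2 at -1.05 and CELF1 at -0.40. Spliceosome core genes had 29 of 84 higher and 13 lower (median 0.07), with SNRPF at 0.27 and SNRPD2 at 0.25. LSM11, which belongs to the U7 particle for histone mRNA ends, was at -1.49. SR proteins and their kinases had 12 of 32 lower and 8 higher, a balance that RLE factors turned to 11 higher and 7 lower. The kinases DYRK1B and DYRK1A were at -1.17 and -0.70, and SRPK1 was at 0.22. DEAD-box and DEAH-box helicases had 13 of 47 lower and 10 higher (17 higher and 11 lower with RLE factors), and DDX20 stood out at -1.14. RBM genes had 8 of 24 lower and 4 higher (6 each with RLE factors).

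mRNA 3' end processing genes had 10 of 24 lower and 7 higher with a median of 0.04, and 5 of them were lower past the minimum fold. CLP1 and PCF11 of cleavage factor II were at -1.10 and -1.04, CSTF1 at -0.97 and the poly(A) polymerase gene PAPOLG at -0.91, while SYMPK was at 0.28 and CPSF6 at 0.22. Deadenylation, decapping and decay genes had 29 of 60 lower and 10 higher, with 10 lower past the minimum fold. BTG2, an inducible partner of the deadenylase, was at -1.76, SMG8 of nonsense-mediated decay at -1.44 and MEX3B at -1.32, whereas the deadenylase PARN was at 0.23 and AGO3 at 0.42. Exosome genes and cofactors had 8 of 19 lower and 2 higher: the cofactor genes TENT4A and ZCCHC8 were at -0.65 and -0.52. RNA export and exon junction genes had 8 of 23 higher and 2 lower. RNA modification genes had 32 of 101 lower and 18 higher, with METTL18 at -1.80, NSUN3 at -1.13 and PUS3 at -1.10, but with RLE factors 30 were higher and 27 lower. Of 30 importins and exportins 12 were higher and 5 lower, and nucleoporins were balanced at 5 higher and 4 lower of 29 (4 each with no scaling factors), NUP153 being at -0.57.

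Several classes of the translation machinery had more members higher than lower, by small amounts. Cytosolic ribosomal protein genes had 60 of 74 higher and 2 lower, with a median of 0.25. Their median deviation from the DMSO mean was 0.295, 0.155, 0.247 and 0.245 in the 4 SK-3-91 libraries, against 0.011, 0.090, -0.082 and -0.006 in the 4 DMSO libraries. The groups did not overlap, but SK-3-91 replicate 2, at 0.155, lay near DMSO replicate 2, at 0.090. RPLP2, of the ribosomal stalk, had 368, 316, 360 and 346 CPM with SK-3-91 and 282, 309, 262 and 238 CPM with DMSO (0.35 ± 0.07, adjusted p = 3.6e-05). RPS15A was at 0.39 and RPL26 at 0.31, and the 2 lower members, RPS3A and RPL7L1, were both uncertain because they share sequence or exons with other genes, and RPL7L1 (-0.15) was no longer called with RLE factors (adjusted p = 0.061) or without SK-3-91 replicate 1 (adjusted p = 0.098). In all, 17 of the 74 genes were uncertain in this way.

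Most human ribosomal protein mRNAs start with a C followed by a run of pyrimidines, a feature through which growth signals control their translation. The start windows of 4 members are shown for that reason. They had the largest log2 fold changes among the matched members not called uncertain. Each window runs from 5 bases before to 25 bases from the annotated start (RefSeq, GRCh38.p14), with capitals for the pyrimidine run where it begins at the start base: RPLP2 (chr11:809962-809991, plus strand), RPL34 (chr4:108620571-108620600, plus strand), RPL26 (chr17:8383169-8383198, minus strand) and RPL27 (chr17:42998414-42998443, plus strand).
RPLP2: gccttCCTTTTCCTCCCTgtcgccaccgag
RPL34: ttcttCCTCTTCCggggacgttgtctgcag
RPL26: tagttCTCTTCCCTTTTgcggccatcaccg
RPL27: aggttagcggaagtgtccttctttcctttt
A C and 4 further pyrimidines stood at the annotated start in 39 of the 60 ribosomal protein genes with a window (65%), against 5.6% of the 8103 measured genes with one and 4.04% of all windows. The RPL27 window has no such run at its annotated start. RPL27 was higher at 0.30, and RPL34, at 0.31, was not called (adjusted p = 0.059). Of the genes called higher 7.81% carried the feature.

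Initiation factors had 33 of 59 higher and 7 lower (median 0.11). EIF5 went against its class: it had 197, 227, 227 and 215 CPM with SK-3-91 and 488, 493, 476 and 467 CPM with DMSO (-1.15 ± 0.04, adjusted p = 1.7e-23), so every SK-3-91 value was under the lowest DMSO value. EIF2AK3, the PERK kinase of the unfolded protein response, was at -0.59, and EIF3H was at 0.26. Elongation and release factors had 13 of 26 higher and 1 lower, with EEF1D at 0.30 and NACA at 0.26. Cytosolic tRNA synthetases had 14 of 24 higher and 1 lower. The lower one, SEPSECS at -0.67, is taken by the class pattern but is not itself such a synthetase. The mitochondrial synthetases held 3 higher and 4 lower of 16 with a median of 0.05 (7 higher and 2 lower with RLE factors), and PARS2 lay far from the rest at -2.30. Mitochondrial ribosomal protein genes had 22 of 73 higher and 5 lower (median 0.08), with MRPL17 at -0.60 and CHCHD1 at 0.25. Ribosome biogenesis genes had 28 of 108 lower and 23 higher, which RLE factors turned to 34 higher and 22 lower. UTP25 was at -0.72 and UTP15 at -0.50, against BOP1 at 0.28 and FBL at 0.27.

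The noncoding host genes of small nucleolar RNAs fell while the ribosomal protein genes rose. They had 10 of 16 lower and 1 higher, with a median of -0.37 and 5 lower past the minimum fold. GAS5, a host of box C/D snoRNAs whose spliced RNA is known to be degraded on ribosomes, had 34, 32.8, 34.7 and 36.1 CPM with SK-3-91 and 64.5, 66, 63.6 and 65.2 CPM with DMSO (-0.92 ± 0.05, adjusted p = 2e-18). The values within each group lay close together and the groups did not overlap. SNHG12 was at -1.05, and 5 of the 16 hosts were uncertain. Other noncoding classes were nearer balance: antisense, divergent and intronic genes had 26 lower and 24 higher of 145, 62 of them uncertain (31 higher and 23 lower with RLE factors), and LINC genes had 10 lower and 7 higher of 37.

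Protein turnover genes differed between the proteasome and the ligases. Proteasome subunit genes had 27 of 44 higher and 3 lower (median 0.15), with PSMA7 at 0.28 and PSMB7 at 0.26, and E1 and E2 enzyme genes had 16 of 42 higher and 5 lower. The ligase families leaned the other way. F-box genes had 23 of 45 lower and 6 higher, TRIM genes 17 of 33 lower and 6 higher, KLHL, KBTBD, BTBD and KCTD genes 26 of 55 lower and 4 higher, RNF genes 19 of 51 lower and 3 higher, and HECT, U-box, MARCH and other ligase genes 28 of 68 lower and 5 higher. TRIM23 was at -1.57, KLHL26 at -1.54, FBXO32 at -1.42, TRIM32 at -1.31, FBXO8 at -1.29, BIRC3 at -1.25 and SMURF1 at -0.98. FBXO45, a member of an atypical ligase, was at -1.07. Cullins, CRBN and cullin adaptors were balanced at 14 higher and 12 lower of 49, and 13 higher and 16 lower with no scaling factors. Deubiquitinase genes had 31 of 74 lower and 14 higher, with USP51 at -1.56, VCPIP1 at -1.03 and UCHL3 at 0.25.

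Chaperone genes differed by class. Chaperonin and prefoldin genes, which fold actin and tubulin, had 17 of 23 higher and 1 lower (median 0.16). HSP70, HSP90, small HSP and co-chaperone genes had 19 of 37 higher and 9 lower, with SUGT1 at 0.32 and CHORDC1 at 0.31 against CDC37L1 at -1.23 and BAG4 at -0.90. DNAJ genes had 10 of 30 lower and 6 higher (9 each with RLE factors), with DNAJB9 at -1.36 and DNAJC27 at -1.10. Among ER folding and glycosylation genes 24 of 70 were higher and 16 lower, with HERPUD1 at -0.92 and ERO1B at -0.66 against DAD1 at 0.28.

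Genes of the respiratory chain rose together. Complex I genes had 31 of 47 higher and 0 lower (median 0.20), complex II to IV and cytochrome c genes 32 of 51 higher and 5 lower (median 0.17), and ATP synthase genes 16 of 17 higher and 0 lower (median 0.24). ATP5MG had 236, 203, 225 and 218 CPM with SK-3-91 and 177, 193, 165 and 179 CPM with DMSO (0.30 ± 0.05, adjusted p = 1.2e-05). Its lowest SK-3-91 value, 203 CPM, was close to its highest DMSO value, 193 CPM. NDUFB7 was at 0.34, COX7C at 0.31 and COX6B1 at 0.27, while COA7 and COX10, which serve cytochrome c oxidase assembly, were at -0.50 and -0.35. The genes that express the mitochondrial genome went the other way, 16 of 36 lower and 6 higher (median -0.11), with FASTKD3 at -0.92, MTERF1 at -0.63 and TRMT10C at -0.59. TIMM and TOMM import genes were balanced at 8 higher and 6 lower of 31 (6 higher and 7 lower with no scaling factors). SLC25 carriers had 11 of 35 higher and 8 lower (median 0.11), and SLC25A25 was at -1.52.

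Metabolic enzyme genes rose as well. Glycolysis enzyme genes had 16 of 26 higher and 3 lower (median 0.24). PKM, the pyruvate kinase of proliferating cells, had 1814, 1714, 1758 and 1716 CPM with SK-3-91 and 1446, 1509, 1355 and 1361 CPM with DMSO (0.30 ± 0.04, adjusted p = 2.9e-07), without overlap, and TPI1 and PGK1 were both at 0.29. The glucose transporter gene SLC2A1 was at -0.57. Citric acid cycle and pyruvate dehydrogenase genes had 23 of 36 higher and 2 lower; both lower ones, PDP2 at -1.15 and PDP1 at -0.59, encode phosphatases that switch pyruvate dehydrogenase on. Nucleotide synthesis genes had 26 of 47 higher and 5 lower, and serine, one-carbon and amino acid synthesis genes 19 of 38 higher and 3 lower. Sterol and fatty acid synthesis genes had 19 of 40 higher and 8 lower.

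Among membrane and trafficking genes, solute carriers outside SLC25 had 46 of 146 lower and 23 higher. The zinc exporter gene SLC30A1 was at -1.63, SLC16A6 at -1.36, the cystine transporter gene SLC7A11 at -1.18 and the thiamine transporter gene SLC19A2 at -1.08, against SLC15A2 at 0.62. V-ATPase and lysosome genes had 24 of 63 higher and 4 lower, and COPI, COPII, SEC and TRAPP genes 49 of 149 higher and 29 lower. RAB genes (24 higher, 26 lower of 94), VPS, SNX and retromer genes (18 higher, 21 lower of 71) and autophagy genes (7 higher, 10 lower of 48) were balanced, and in all 3 classes RLE factors turned the larger side to higher, with 28, 22 and 12 higher. RAB3A was at -1.59, RAB11FIP2 at -1.31 and ATG14 at -0.71.

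The 4 measured LRRC8 genes, which encode subunits of the volume-regulated anion channel, all fell. LRRC8A, the subunit every such channel needs, had 27.2, 29.9, 26.4 and 28 CPM with SK-3-91 and 66.3, 61.5, 59.3 and 63.5 CPM with DMSO (-1.17 ± 0.06, adjusted p = 2.9e-20), and LRRC8B had 18.9, 20.4, 19.2 and 18.2 CPM with SK-3-91 and 51.2, 46.3, 50.3 and 48.9 CPM with DMSO (-1.36 ± 0.07, adjusted p = 5.1e-20). LRRC8C was at -0.72 ± 0.06 and LRRC8D at -0.59 ± 0.06. In each of the 4 genes every SK-3-91 library lay below every DMSO library, as in 28.2% of all genes. LRRC8D was added after its values were seen, to complete the family. The naming rule takes the largest decreases of a class, and a family of 4 is under the 5 members asked of a class. The fall of this family is therefore a description and was not tested. The wider class of leucine-rich repeat, TTC and ARMC genes was lower in 20 of 68 and higher in 13 (17 higher and 16 lower with RLE factors).

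Cyclin, CDK and CDC genes had 31 of 77 lower and 18 higher. CDC25A, a phosphatase that activates CDK2, had 51.5, 52, 51.2 and 53.1 CPM with SK-3-91 and 124, 118, 109 and 122 CPM with DMSO (-1.19 ± 0.04, adjusted p = 3.2e-24). CDKN1B, which inhibits the same kinase, had 17.1, 22.2, 17.8 and 17.3 CPM with SK-3-91 and 71.8, 69.8, 69.5 and 74.7 CPM with DMSO (-1.94 ± 0.07, adjusted p = 4.9e-25). Neither gene's groups overlapped, and WEE1, a kinase that restrains CDK1, was at -0.96. Replication licensing and fork genes were even at 20 higher and 20 lower of 71, with CDC6 at -0.72 and CDT1 at -0.56, and their larger side was lower with no scaling factors (23) and higher with RLE factors (33) and upper-quartile factors (21). Kinetochore, centromere and spindle genes had 46 of 136 lower and 21 higher, with MIS12 at -1.22 and CENPQ at -1.15. Base, nucleotide excision and mismatch repair genes had 19 of 49 higher and 7 lower. Double-strand break and Fanconi genes had 21 of 70 lower and 11 higher (22 higher and 17 lower with RLE factors), with BARD1 at -0.79. Condensin, cohesin and SMC genes had 10 of 31 higher and 7 lower (9 and 10 with no scaling factors).

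Actin, myosin and actin regulator genes had 43 of 87 higher and 5 lower (median 0.13), led by TMSB4X and PFN1, both at 0.35, while the cofilin gene CFL2 was at -1.50. Kinesin, dynein and tubulin genes had 23 of 77 lower and 19 higher (25 higher and 17 lower with RLE factors). In signalling, the kinase classes were near the background. MAP kinase cascade genes had 19 higher and 20 lower of 77 (29 higher and 19 lower with RLE factors, 20 each with upper-quartile factors), PI3K, AKT and mTOR genes 16 higher and 22 lower of 67, tyrosine kinase genes 7 higher and 11 lower of 30 (12 and 11 with RLE factors) and other serine/threonine kinase genes 23 higher and 36 lower of 118. MAP3K14, which starts the noncanonical NF-kB pathway, was at -1.41, LATS2 of the Hippo pathway at -1.35, YES1 at -1.07 and TEC at -1.06. DUSP and tyrosine phosphatase genes had 26 of 64 lower and 10 higher, and serine/threonine phosphatase subunit genes 23 lower and 18 higher of 69 (19 and 23 with RLE factors). PPP1R3B was at -1.57 and PPP1R15B, which directs phosphatase 1 to eIF2 alpha, at -1.33. Cytokine, interleukin and TNF receptor family genes, with the SOCS genes, had 28 of 60 lower and 7 higher (median -0.16), with SOCS4 at -1.11.

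Small GTPase genes outside RAB were lower in 18 and higher in 15 of 62 (15 and 18 with RLE factors), with ARL11 at -1.29 and the haematopoietic RHOH at -1.08, against RAC2 at 0.32. GAP and GEF genes, which regulate small GTPases, had 26 lower and 17 higher of 97 (24 and 27 with RLE factors), and G protein, GPCR and RGS genes 22 lower and 19 higher of 78 (21 and 22 with RLE factors), with CCRL2 at -1.98 and GPR65 at -1.22. T-cell receptor and adaptor genes had 18 lower and 16 higher of 51 (16 and 21 with RLE factors). The costimulatory receptor gene ICOS was at -0.68, while ZAP70 was at 0.27 and CD7 at 0.28. HLA and antigen presentation genes had 7 higher and 3 lower of 16, interferon-stimulated genes 17 higher and 12 lower of 53, with IFIT2 at -1.03 and BST2 at 0.30, and other CD antigen, GIMAP, SLAMF and SIGLEC genes 21 higher and 16 lower of 70. BCL-2 family and caspase genes had 16 lower and 10 higher of 38 with a median of 0.05. MCL1, a short-lived survival factor, had 95.5, 101, 98.6 and 100 CPM with SK-3-91 and 201, 189, 198 and 198 CPM with DMSO (-0.99 ± 0.04, adjusted p = 1.6e-21), with the 2 groups far apart, and BCL2L11, which opposes it, was at -0.74.

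Among the 577 genes of 7 classes named only by symbol 29 were lower past the minimum fold (5.03%), near the 5.83% of all genes. CxORF and KIAA genes had 59 of 147 lower and 19 higher, FAM genes 35 of 104 lower and 13 higher, and ANKRD genes 13 of 37 lower and 4 higher. TMEM genes had 39 lower and 31 higher of 126 (31 and 40 with RLE factors), CCDC genes 14 lower and 12 higher of 65 (13 and 16 with RLE factors), WDR genes 13 lower and 11 higher of 49 (11 and 16 with RLE factors) and LOC genes 12 lower and 6 higher of 49. FAM111B, which encodes a protease, was at -1.52, TMEM115 at -1.44, CCDC71 at -1.24, FAM200A at -1.15, WDR89 and C5orf24 both at -1.11, and TMEM11, which encodes a mitochondrial membrane protein, at -0.95.

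The measured genes were then sorted by structure, from GENCODE release 29. Decreases were most frequent among genes with 2 exons. Outside the zinc-finger classes the 394 genes with 2 exons had a median of -0.21, with 53.6% lower and 17.8% lower past the minimum fold. With 3 exons (522 genes) 38.9% were lower and 10.5% past the minimum fold, with 4 exons (612 genes) 27.9% and 7.84%, with 5 exons (679 genes) 26.5% and 6.48%, with 6 exons (667 genes) 30.9% and 5.25%, with 7 to 9 exons (1673 genes) 24.9% and 3.17%, with 10 to 15 exons (2403 genes) 25.9% and 2.87%, and with 16 or more exons (2365 genes) 21.8% and 1.31%. Single-exon genes were almost all missing from the deposited table, with 34 outside the zinc-finger classes, of which 29.4% were lower and 8.82% past the minimum fold (median -0.07). Some genes named above carry 2 exons, among them PARS2, MED9, INTS5, METTL18, BTG2, TMEM115, TRIM32, USP51, SLC30A1, PDP2, PPP1R3B, ZBTB5 and ZBTB3. Over all genes 416 of the 9757 with a value carry 2 exons. Those listed were named for their large decreases, so they add no support to the exon trend.

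Length moved with the response as well. In the shortest quartile of transcripts outside the zinc-finger classes (177 to 2052 bases) 41.1% were higher and 14% lower (median 0.12), and in the longest quartile (4936 bases and more) 13.1% were higher and 39.1% lower (median -0.07). The exon pattern was present within each length quartile. Among transcripts of 3199 to 4935 bases, 67.3% of the 168 genes with 2 or 3 exons were lower, against 40.9% of 697 genes with 4 to 9 exons and 23% of 1463 genes with 10 or more. In the shortest quartile the shares were 24.2% of 376, 12.4% of 1438 and 10.7% of 507. Cytosolic ribosomal protein, complex I and ATP synthase genes have short transcripts (medians of 1080, 1141 and 1179 bases, against 3227 over all genes), and ZNF genes have a median of 5 exons against 9. The part of length and exon number in the class results was not tested.

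Composition and the 3' untranslated region showed further trends. Transcripts in the lowest quartile of GC content were higher in 15.5% and lower in 40% (median -0.06), and those in the highest quartile higher in 36% and lower in 16.3% (median 0.10). Genes with no AUUUA word in the 3' untranslated region, a word of the elements through which decay factors bind, were higher in 37.9% and lower in 15.5% (2766 genes), and genes with 11 or more were higher in 10.8% and lower in 46.5% (1115 genes). Longer regions hold more words: in the quartile with the shortest 3' untranslated regions 38.6% were higher and 15.1% lower, and in the quartile with the longest 12.8% and 43.5%. By level, taken from the DMSO libraries of 4 h, which did not enter the 1 h difference, the highest quartile was higher in 44% and lower in 20.6%, and the lowest quartile higher in 10.6% and lower in 28%. These properties go together across genes and were not separated, and the share called also depends on depth.

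**Figure D4:**
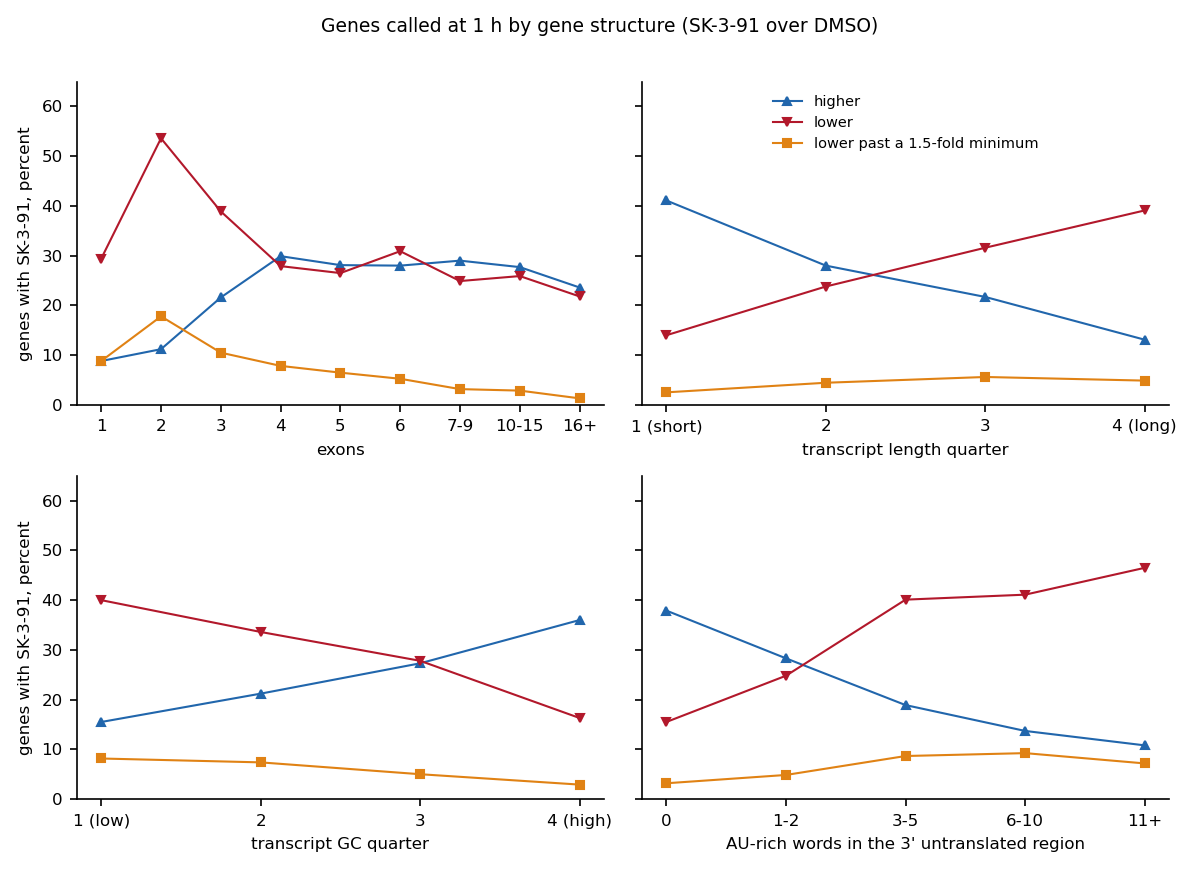
Share of genes called lower at 1 h, called higher and lower past a minimum fold of 1.5 (y axes, percent) by exon number, transcript length quartile, transcript GC quartile and number of AUUUA words in the 3' untranslated region; the exon and length panels leave out the zinc-finger classes. The share lower is highest at 2 exons and lowest at 16 or more, with small rises at 6 and at 10 to 15 exons; it falls with GC and rises with length and AUUUA words, while the share higher does the reverse for length, GC and AUUUA words.

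RefSeq promoter windows were matched for 8103 of the genes (82.5%), 1 window each, and searched on both strands. TATAAA was found in 9.01% of 333 genes lower past the minimum fold outside the zinc-finger classes, against 6.9% of all 478 genes lower past that fold, 4.74% of all measured genes, 4.59% of those called higher and 12% of all windows. The zinc-finger genes carried CCGGAAG, the core bound by ETS factors, in 41.3% of 351 windows, against 21.3% of all measured genes and 10.7% of all windows, and TTCNNNGAA in 12.8% against 6.38%. The second pattern can overlap the first where their shared letters fall together. CCAAT was found in 45.4% of all genes lower past the minimum fold, against 37.3% of all measured genes and 35.7% of all windows, and GGGCGG in 65.9% against 71.7% of measured genes and 44.6% of all windows. TGACGTCA was found in 4.39% against 3.5%, TGACG, its opening letters, in 37% against 36% and 25%, CACGTG in 7.53% against 11% of measured genes and 7.43% of all windows, and TTTCGCGC in 1.26% against 1.09% and 0.546%.

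The 1 h response was followed at 4 and 8 h, where each time has its own DMSO libraries. At 4 h 45.9% of genes were lower (4511) and 42% higher (4121), and at 8 h 48.1% were lower (4723) and 41.3% higher (4060). The scaling mattered more here than at 1 h: with library size alone 5752 were lower and 2871 higher at 4 h, and 6145 were lower and 2778 higher at 8 h. Upper-quartile factors gave 5307 lower and 3577 higher at 8 h. The median over all genes, -0.053 at 4 h and -0.107 at 8 h with TMM factors, was -0.352 and -0.538 with library size alone, and -0.273 at 8 h with upper-quartile factors, so the later values below are to be read against the median of all genes. Of the 573 genes lower past the minimum fold at 1 h, 453 were lower at 4 h (79.1%) and 84 were higher, and at 8 h 391 were lower (68.2%) and 146 higher. Of the 2448 genes called higher at 1 h, 1905 were higher at 4 h (77.8%) and 1473 at 8 h (60.2%). The difference between the 4 h and the 1 h response was itself called for 80.4% of genes, 39.9% lower and 40.6% higher at 4 h, and the difference between 8 h and 1 h for 85.4%. With library size alone the difference at 4 h was higher for 2672 genes and lower for 5198, and at 8 h higher for 2782 and lower for 5724.

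Of 20 classes with a median of at least 0.1 at 1 h, 18 had a larger one at 4 h and 14 at 8 h, where 6 were below 0. Of 23 classes with a median of -0.1 or less, 15 had a lower one at 4 h and 15 at 8 h, where 6 were above 0. With library size alone these counts were 13 and 7 for the upward classes, with 11 below 0 at 8 h, and 20 and 21 for the downward ones, with 0 above 0. The medians at 1, 4 and 8 h were 0.25, 1.19 and 1.38 for cytosolic ribosomal protein genes, 0.24, 1.04 and 0.95 for ATP synthase genes, and 0.17, 0.64 and 0.99 for RNA polymerase II subunit genes. In the last class 4 of 13 genes were uncertain. The ZNF genes had medians of -0.66, -1.05 and -0.90, ZFP, ZSCAN and ZKSCAN genes -0.72, -1.48 and -1.18, and homeobox genes -0.32, -0.67 and -0.75. Some falling classes did not keep their level with TMM factors: ZBTB genes had medians of -0.57, -0.21 and 0.17, snoRNA hosts -0.37, -0.07 and 0.31, acetyltransferase genes -0.23, -0.11 and 0.14, and F-box genes -0.17, -0.08 and 0.11. With library size alone the 1 h and 4 h medians were -0.59 and -0.51 for ZBTB genes and -0.39 and -0.36 for snoRNA hosts. Acetyltransferase genes then went from -0.25 to -0.40 and F-box genes from -0.19 to -0.38, where all genes stood at -0.352 at 4 h. Some upward classes did not keep their side: cytosolic tRNA synthetase genes had medians of 0.11, -0.01 and -0.49, HSP70 and HSP90 class genes 0.16, 0.09 and -0.46, nucleotide synthesis genes 0.11, 0.21 and -0.44, and mitochondrial ribosomal protein genes 0.08, -0.19 and -0.61. The 4 h sign turned for tRNA synthetase genes with RLE factors (0.04) and for HSP70 and HSP90 class (-0.21) and nucleotide synthesis genes (-0.09) with library size alone. The whole set of genes had medians of 0.01, -0.05 and -0.11. With library size alone the 8 h medians were 0.95 for ribosomal protein, 0.51 for ATP synthase and 0.55 for RNA polymerase II subunit genes, but -0.26 for ZBTB genes, -0.12 for snoRNA hosts, -0.29 for acetyltransferase and -0.32 for F-box genes, all above the -0.54 of all genes. Upper-quartile factors also turned the 8 h sign for acetyltransferase (-0.02) and F-box genes (-0.05).

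Single genes split in the same ways. MEPCE had log2 fold changes of -1.24, -2.49 and -1.96 at 1, 4 and 8 h, and PARS2 of -2.30, -4.34 and -3.68. MED17 was at -1.37, -0.49 and 0.12 (-0.31 at 8 h with library size alone and -0.05 with upper-quartile factors), HES1 at -1.73, -0.34 and -0.64, and MCL1 at -0.99, -0.28 and 1.09. DYRK1A, at -0.70, 1.57 and 2.03, and TMEM11, at -0.95, 0.58 and 0.85, were lower at 1 h and higher later, with a difference between the 4 h and 1 h responses of 2.27 ± 0.06 (adjusted p = 5.9e-29) for DYRK1A and 1.53 ± 0.07 (adjusted p = 1.6e-21) for TMEM11. MIR210HG, the noncoding host of miR-210, had 5.74, 5.17, 5.73 and 5.02 CPM with SK-3-91 and 2.58, 2.86, 2.47 and 1.82 CPM with DMSO at 1 h, so its groups did not overlap. On the log2 scale it stood at 1.15 after 1 h and -0.63 after 4 h, while the other 4 genes past the minimum fold upward at 1 h were higher at 4 h and at 8 h. Those 4 genes had few reads at 1 h. The filter on low genes before deposit may have kept them only because later SK-3-91 libraries were high. Their later level is therefore no support for a lasting increase.

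**Figure D5:**
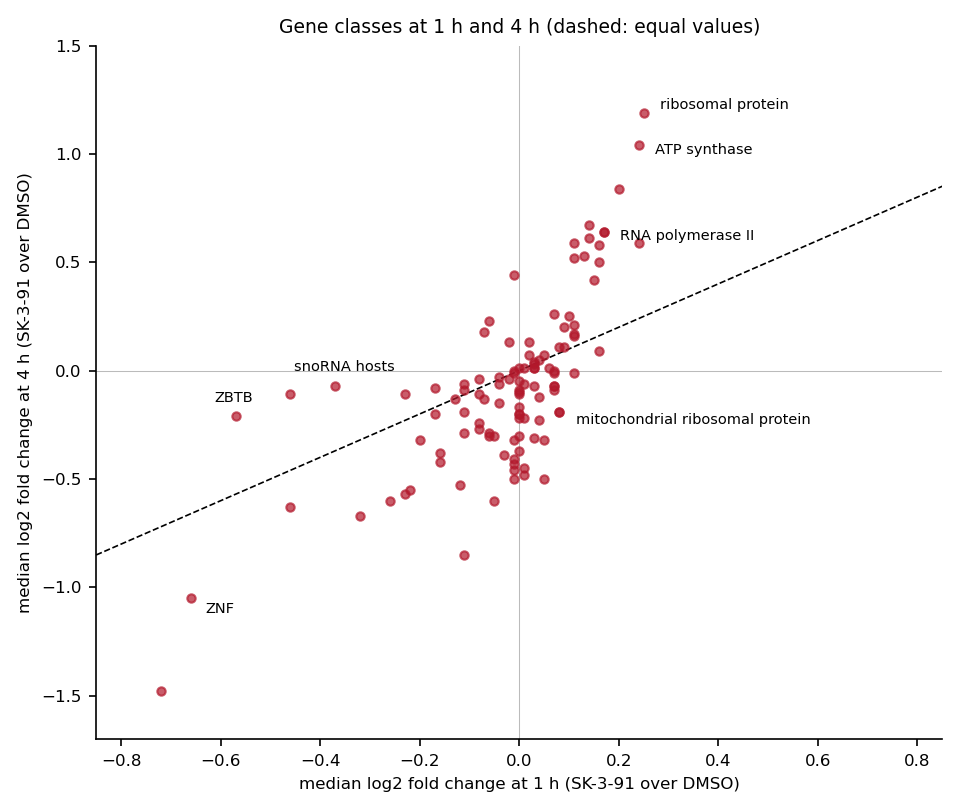
Median log2 fold change of each gene class (SK-3-91 over DMSO) at 1 h (x axis) against its median at 4 h (y axis), with one point per class, the line of equal values dashed and named classes labelled. Ribosomal protein and ATP synthase genes are high at both times and ZNF genes low at both, while ZBTB genes and snoRNA hosts are nearer 0 at 4 h than at 1 h.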

How the data were processed

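RNA was measured in 24 libraries of MOLT4 cells. Per the labels' protocols, total RNA was taken with RNeasy kits and single-end 50-base reads came from a BGISEQ-500. The authors deposited a table of whole-number read counts for 9822 genes, and the submitters' processing notes name hg19 and edgeR. The aligner, counter, annotation and strand setting are not given in the sources used here, and a filter on low genes was applied before deposit, since the lowest mean count of a listed gene is 32.04. A second table deposited by the authors, of log2 values, was used only for gene symbols; 4 genes have none. No sample column was left out (0 unused). The genes JUN, CDKN1A, HEXIM1 and PTK2 are not analysed here, and a few other genes that met the naming rule are not reported here.

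Counts were fitted with edgeR 4.0.16 (R 4.3.3; TMM factors, quasi-likelihood F test, 6 group means over all 24 libraries, Benjamini-Hochberg over all genes at 0.05). filterByExpr removed 0 genes. The minimum-fold test was glmTreat at 1.5. Log2 fold changes carry edgeR's small default prior count, and their median standard error at 1 h was 0.058. A prior count of 2 was used only for the log2 CPM behind the principal components and the class medians of single libraries. The totals were compared by an exact permutation test, and the code was tested on simulated counts. Counting error alone limits genes of a few CPM most. No 2 libraries of a group were alike within sampling noise (chi-square per degree of freedom of 1.68 to 4.39).

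Named genes were called, had at least 2 CPM in the higher group (5 CPM for the 10 largest over all genes) and had all 4 SK-3-91 libraries on one side of the DMSO libraries; up to 4 decreases and 3 increases were taken per class, and 3 uncertain genes were passed over among the largest decreases. Genes sharing at least 20% of their 32-base words with other genes, or of their exon bases with a gene on the opposite strand (1013 genes, GENCODE 29), are called uncertain. The members, classes and lists were chosen with earlier results of these data known. Class patterns were corrected after values were seen: antisense and divergent genes named for a host left the protein classes, and 5 genes left the snoRNA host list. Exon and AUUUA groupings were also chosen after seeing the data. Alternatives were RLE, upper-quartile and no scaling factors, DESeq2 1.42.0, limma-trend (limma 3.58.1), other filters, the 1 h libraries alone, a replicate block and leaving out each library. RefSeq sequences are of build GRCh38.p14, and no coordinates of the counted genes are used.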

Additional observations from a re-analysis of the deposited data

Results flagged for a closer look

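Among 48 groups of 4 libraries whose values were checked, 2 held a library far from the other three, and chance gives about 1 in 20. CDKN1B stood at 22.2 CPM in SK-3-91 replicate 2, above the 17.1 to 17.8 CPM of the other SK-3-91 libraries. OTX1 stood at 20.4 CPM in DMSO replicate 4, above the 17.9 to 18.1 CPM of the other DMSO libraries. Neither value lay near the other group.

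The response to SK-3-91 differed between times. The 4 h response differed from the 1 h response in 7901 genes and the 8 h response differed from it in 8390 genes (edgeR quasi-likelihood test, adjusted p under 0.05). Among the genes followed in time, the log2 response at 4 h minus that at 1 h was -1.25 for MEPCE (adjusted p = 1.2e-19), -2.04 for PARS2 (adjusted p = 1.4e-08) and -1.78 for MIR210HG (adjusted p = 5.5e-09). It was 0.88 for MED17 (adjusted p = 2.1e-11), 1.40 for HES1 (adjusted p = 1e-18) and 0.71 for MCL1 (adjusted p = 2.5e-13). It was 2.27 for DYRK1A (adjusted p = 5.9e-29) and 1.53 for TMEM11 (adjusted p = 1.6e-21), 2 genes lower at 1 h and higher at 4 h. The cause of these differences was not tested.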

How the results depend on the processing

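The count of genes called at 1 h (5337) ran from 4771 with limma-trend to 5879 with the 1 h libraries alone, was 5750 with DESeq2 (3214 higher, 2536 lower), and was 4789 to 5128 when 1 library was left out. The count past the minimum fold (578) ran from 517 with RLE factors to 620 with no scaling factors, and 540 to 574 with 1 library left out; DESeq2 and limma were not run for it. The difference between the 4 h and 1 h responses was called for 7510 to 7901 genes (7765 to 7806 with 1 library left out) and that between 8 h and 1 h for 7948 to 8506 (8307 to 8336), where the 1 h libraries alone give no value. The SK-3-91 total stayed at 95.9 to 96.6% of the DMSO total with 1 library left out, with p = 0.0571 in the exact permutation test, the smallest that 3 against 4 allows. With the replicate number as a block 5021 genes were called at 1 h (2261 higher, 2760 lower), 570 passed the minimum fold, and 7758 and 8305 genes differed between the times. Correlations between SK-3-91 and DMSO libraries of the same number were -0.0465, -0.1194, -0.024 and -0.0954, so the numbers were not taken as pairs. Over 224 named genes and 17 settings, 3789 of 3796 values kept their direction and side of the threshold and 0 changed direction. The call was lost by 3 values, all of RPL7L1 (adjusted p = 0.071 with DESeq2), and gained by 4, all of RPL34. Nearly all named genes were chosen in the main fit as called, without overlap and among the largest of their class, so most calls were likely to hold. This does not cover the small calls: 78.1% of called genes were under 0.5 in log2 size. MED17 at 8 h, not called at 0.12, was -0.05 with upper-quartile and -0.31 with no scaling factors; the scalings at 4 and 8 h were added after seeing the data. Class medians moved by more than the library spread in 315 of 1554 values, by at most 0.20. Of the 43 classes with a median of at least 0.1 in size only the histone genes changed sign (-0.058 without uncertain genes, against 0.144). Depth limits the genes of a few CPM, whose errors are widest, and 1013 uncertain genes could share reads.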
